A study of Mus musculus with 8 samples.

Results

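The window around Myc and its neighbour Pvt1 on mouse chromosome 15 was examined for hotspots of 3 chromatin remodelers. Its members are the hotspots of all 6 deposited lists that start between 61000000 and 63500000 on chromosome 15 of the mm9 assembly, a stretch of 2.5 Mb chosen by position and not by signal. There were 840 such hotspots of 820608 in the series. Those that overlapped by at least 1 bp were merged across lists, which gave 441 regions of 532751 in the genome. The place given for Myc with this window is approximate, near 61.8 Mb, and the 100-kb bin that begins there is called the Myc bin. In the order of genes of RefSeq GRCm38.p6, Pvt1 follows Myc, and Myc is the only protein-coding gene between A1bg and Gsdmc, with 13 lncRNA genes in the same interval. That annotation is of another build, so no hotspot was assigned to a promoter, exon or intron, and no sequence was read at these coordinates.

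The libraries came from chromatin immunoprecipitation sequencing of 3134 cells, a murine mammary epithelial line, all untreated. Brg1 was precipitated with a monoclonal antibody, and CHD4 and Snf2h with antibodies to those proteins, with 2 libraries each. Of the 8 libraries, 2 of input DNA are not analysed here. All are of 1 cell line, and no label says that replicates were separate cultures, so the spread between them may be technical.

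Myc encodes a transcription factor that drives cell growth and division, and Pvt1 is a long noncoding RNA gene beside it. The pair lies in a region poor in protein-coding genes that is known for distant enhancers acting on Myc, and for rearrangement and amplification in tumours. Brg1 is the ATPase of SWI/SNF complexes, which slide and evict nucleosomes. CHD4 is the ATPase of NuRD, a complex that also carries histone deacetylases, and Snf2h is that of ISWI complexes, which space nucleosomes evenly.

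The lists differed in length and threshold. They held from 32310 hotspots in Snf2h replicate 1 to 293135 in CHD4 replicate 2, and their lowest Z score of enrichment lay between 2 and 9.49. Tag numbers per library are unknown from these lists. Heights are maximum tag densities in the authors' units, whose scaling is not stated, so between libraries only percentiles within a list were compared.

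Within the window, Brg1 gave 109 and 253 hotspots, CHD4 75 and 289, and Snf2h 32 and 82 in replicates 1 and 2. All 3 antibodies were found together at 59 of the 441 regions, and Brg1 with CHD4 at 71. Brg1 with Snf2h was found at 5 and CHD4 with Snf2h at 2. A single antibody marked the other regions, with 134 of Brg1, 154 of CHD4 and 16 of Snf2h. Most single-antibody regions came from the longest lists: 116 of the 134 held a hotspot of Brg1 replicate 2, and 153 of the 154 held one of CHD4 replicate 2. Without CHD4 replicate 2 there were 293 merged regions, and without Snf2h replicate 2 there were 25 regions of all 3 antibodies.

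Regions of all 3 antibodies made up 13.4% of the window's regions (95% Wilson interval 10.5% to 16.9%), against 7.41% on the rest of the genome and 7.42% of all merged regions of the series. Regions in all 6 lists numbered 19, or 4.31% (2.78% to 6.63%), against 1.96% on the rest of the genome, a background of 1.96%. Regions in a single list numbered 294, or 66.7%, against 76.6% elsewhere, a background of 76.6%. Brg1 with CHD4 made up 16.1%, against 11.4% of all merged regions, and at least 2 antibodies were present at 137 regions (31.1%), against 21.5%. The single-antibody classes were 30.4% for Brg1 against 37.9%, 34.9% for CHD4 against 34.3%, and 3.63% for Snf2h against 6.25%. Brg1 with Snf2h was 1.13%, against 1.49%, and CHD4 with Snf2h was 0.454%, against 1.2%, shares from 5 and 2 regions. The window thus held larger shares of regions common to several lists, and a smaller share of regions of Brg1 alone. These intervals cover counting error only, and neighbouring regions are not independent.

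**Figure D1:**
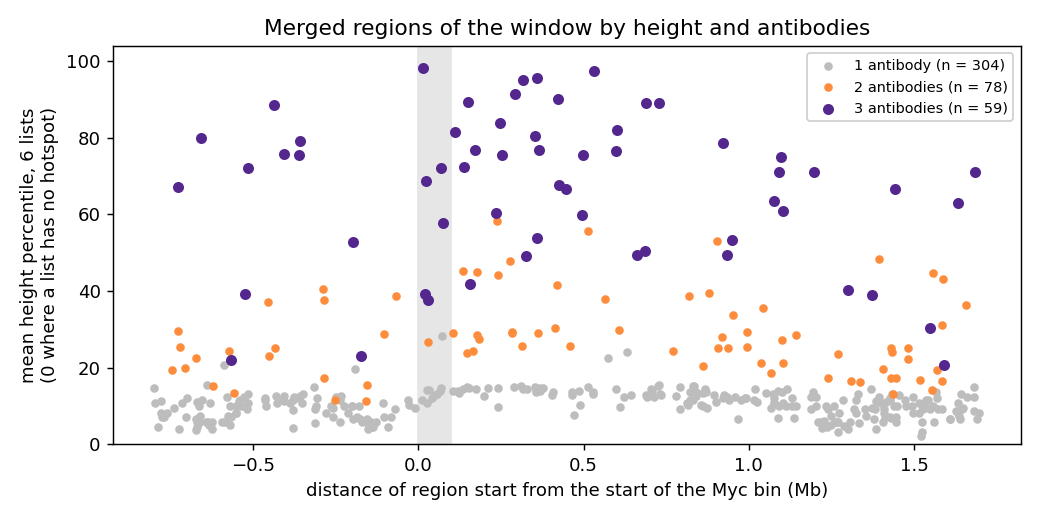
Each point is 1 of the 441 merged regions of the window, placed by the distance of its start from the start of the Myc bin in Mb and by the mean over the 6 lists of its within-list height percentile, a list with no hotspot counting as 0. Colour gives the number of antibodies. The point at the top, with a mean percentile of 98.2, lies in the Myc bin (grey), and regions of 3 antibodies crowd to its right.

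The tallest region of the window over all lists lay in the Myc bin, at chromosome 15 from 61814553 to 61820705. It was 6153 bp wide, the widest of the 441, and wider than 99.8% of the genome's regions found in all 6 lists. It merged 25 hotspots, of which the 2 Brg1 lists gave 3 and 4, the CHD4 lists 5 and 3, and the Snf2h lists 4 and 6. Its maximum density was 89.2 and 76.2 for Brg1, at percentiles 96.4 and 99.5 of those lists. For CHD4 the density was 48.2 and 31.1, at percentiles 98.5 and 99.8, and for Snf2h it was 44.3 and 50.1, at percentiles 98.0 and 96.9. Each of the 3 remodelers stood above the 96th percentile in both libraries, at a region picked for its highest mean percentile. Each value is also the highest of 3 to 6 hotspots, set against percentiles of single hotspots. Among the genome's regions in all 6 lists, the region stood at percentiles 80.5 and 92.8 for Brg1. It stood there at 95.6 and 95.6 for CHD4 and at 94.5 and 81.7 for Snf2h.

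Within that region the tallest hotspot had nearly the same borders in 4 of the 6 lists. It ran from 61814687 to 61815390 in Brg1 replicate 1 and from 61814686 to 61815398 in CHD4 replicate 1. In Snf2h it ran from 61814689 to 61815390 in replicate 1 and from 61814706 to 61815378 in replicate 2. The long lists had wider hotspots over the same place, from 61814553 to 61818912 in Brg1 replicate 2 and from 61814605 to 61817501 in CHD4 replicate 2. Another Snf2h summit lay past the middle of the same region and was not much lower. The hotspot from 61818317 to 61818943 reached 48.5 in Snf2h replicate 2, and that from 61818360 to 61818918 reached 36.0 in Snf2h replicate 1. Over the same place Brg1 replicate 1 reached 29.0 and CHD4 replicate 1 reached 17.3, both well below their values at the first summit.

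The Myc bin had other places with hotspots of 5 lists. One, from 61822209 to 61824439, had Brg1 densities of 31.8 and 17.7 and CHD4 densities of 22.2 and 14.6, and Snf2h replicate 2 reached 14.9. The other, from 61869137 to 61870096, reached 37.1 and 15.8 for Brg1 and 19.1 and 8.65 for CHD4. It was the tallest Snf2h replicate 2 hotspot of the window, at 51.5 and percentile 97.2, and yet Snf2h replicate 1 had no hotspot at either place. A region listed by 1 Snf2h library and not the other is not a replicated Snf2h site.

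The highest Brg1 signal of the window lay further along, in the bin after the Myc bin. The region from 61910221 to 61911587 reached 324 in Brg1 replicate 1, the 22nd tallest hotspot of that whole list, and 129 in Brg1 replicate 2, the 150th tallest. CHD4 reached 49.9 and 31.9 there, at percentiles 98.7 and 99.8. Snf2h reached 33.8 in replicate 2, at percentile 91.3, and replicate 1 had no hotspot.

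CHD4 was highest at a pair of places further along still. In CHD4 replicate 1 the tallest hotspot of the window lay in the region from 62159698 to 62161115, at 80.1, with 35.8 in CHD4 replicate 2. In CHD4 replicate 2 it lay in the region from 62331817 to 62333678, at 40.03, with 52.0 in CHD4 replicate 1. Brg1 was also tall at both, with 192 and 124 at the first and 229 and 102 at the second. Snf2h reached 21.5 and 41.4 at the first and 31.9 and 35.0 at the second. Both Brg1 libraries thus peaked in 1 region, while the CHD4 libraries peaked in different regions, as did the Snf2h libraries.

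The other regions among the 8 of highest mean percentile started at 61949897, 62092539, 62117884, 62223392 and 62489584. A list without a hotspot counted as 0 in that mean, so the ranking itself favoured regions in all 6 lists, which all 8 were. The region from 61910221, found in 5 lists, ranked 13th. All 8 started in the Myc bin or in the 6 bins after it, bins grouped after the data had been seen. The regions ranked 9th and 10th started outside these bins, at 62529087 and 61363457. Their mean percentiles were 88.99 and 88.47, against 89.11 for the 8th. In these 8 regions the Brg1 percentiles ran from 95.04 to 99.93 and the CHD4 percentiles from 80.05 to 99.94. The Snf2h percentiles ran from 63.8 to 98.0, and among the 8 both Snf2h libraries were highest at the region of the Myc bin.

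Counted in 100-kb bins, hotspots of the shorter lists gathered in the Myc bin and after it. The Myc bin held 7 and 13 Brg1 hotspots, 8 and 16 CHD4 hotspots, and 4 and 12 Snf2h hotspots. The median bin of the window held 4 and 11, 3 and 11, and 1 and 3. The Myc bin was the highest of the 25 bins in CHD4 replicate 1 and in both Snf2h lists, while the longest lists peaked in the bin at 63.2 Mb with 18 and 22 hotspots.

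**Figure D2:**
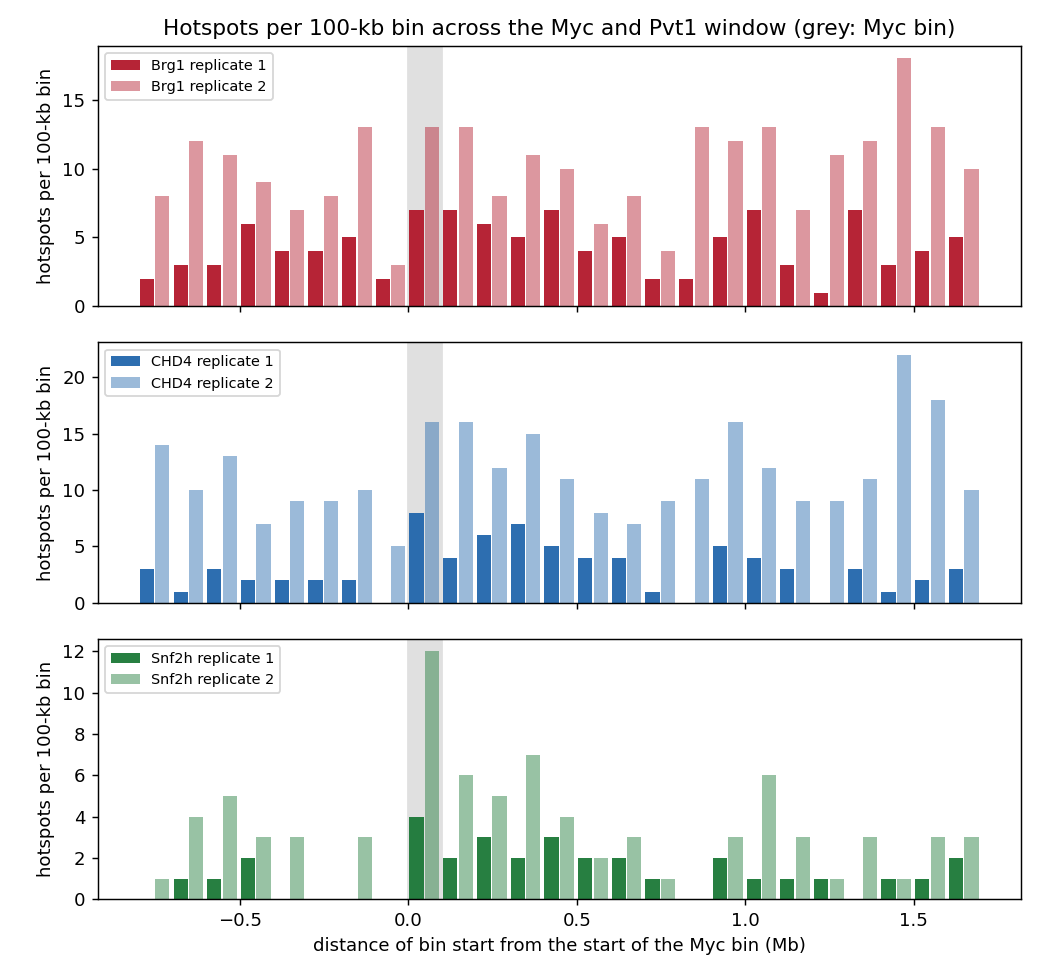
Bars give the number of hotspots that start in each of the 25 bins of 100 kb, by the distance of the bin from the Myc bin in Mb, with a panel for each antibody, dark bars for replicate 1 and light bars for replicate 2. Snf2h replicate 2 reached 12 hotspots in the Myc bin (grey), against a median of 3 over the bins.

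Replicated sites, where the hotspots of an antibody's replicates overlap, numbered 13 in the Myc bin, the highest count of the window and equal to that of the bin at 62.0 Mb. Without replicate 1 of Brg1, CHD4 or Snf2h, when the other list of that antibody is counted alone, the number in the Myc bin was 22, 24 or 21. With all lists, the 13 sites were 4 for Brg1, 5 for CHD4 and 4 for Snf2h. All 4 Snf2h replicate 1 hotspots of the bin lay in the region from 61814553 to 61820705. The 4 replicated Snf2h sites are thus parts of 1 merged region and not separate places. Of the 25785 bins of the genome, 6.99% held as many replicated sites or more, and 3.05% held as many Snf2h sites or more. The bin before it, at 61.7 Mb, was the emptiest of the window, with 7 merged regions, 1 replicated Brg1 site and none of CHD4 or Snf2h. The other bins with few merged regions were those at 62.3 and 62.4 Mb, with 9 and 11. Those with most were at 63.2, 63.3 and 61.2 Mb, with 30, 26 and 23, and only 1, 2 and 3 of these regions held all 3 antibodies.

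The number of merged regions and the number of shared ones thus differed along the window. The Myc bin and the 6 bins after it, a stretch from 61.8 to 62.5 Mb drawn after the bins had been seen, held 102 of the 441 merged regions (23.1%) and 32 of the 59 regions of all 3 antibodies (54.2%). It held 33 of 78 replicated Brg1 sites, 33 of 62 CHD4 sites and 12 of 21 Snf2h sites. From 61 to 61.8 Mb there were 18, 11 and 3 replicated sites, and from 62.5 to 63.5 Mb there were 27, 18 and 6. Per Mb, the stretch held 17.1 Snf2h sites, against 3.75 before it and 6 after it. Of its 12 Snf2h sites, 4 lay in 1 merged region, that from 61814553 to 61820705. Counts and heights by this stretch are a description, with no test.

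Bin profiles of 1 antibody were not measurably more alike than those of different antibodies. Over the 25 bins Spearman's rho was 0.73 between Brg1 replicate 1 and CHD4 replicate 1 and 0.72 between Brg1 replicate 2 and CHD4 replicate 2. It was 0.26 between Brg1 replicate 1 and CHD4 replicate 2, and 0.05 between Brg1 replicate 2 and CHD4 replicate 1. Between the 2 Brg1 lists it was 0.31, between the 2 CHD4 lists 0.38, and between the 2 Snf2h lists 0.61. With Snf2h replicates 1 and 2, Brg1 replicate 1 gave 0.55 and 0.71, and CHD4 replicate 1 gave 0.71 and 0.73. Brg1 replicate 2 gave 0.05 and 0.34 with them, and CHD4 replicate 2 gave 0.21 and 0.44. These are descriptions across bins of 1 locus. Same-antibody pairs averaged 0.432 and other pairs 0.457 (exact permutation of the antibody labels, one-sided p = 0.4, where 0.0667 is the smallest possible).

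Hotspots of the window were taller than those of the rest of the genome in every list. The median hotspot of the window stood at percentile 76.0 and 73.2 for Brg1, at 72.1 and 78.7 for CHD4, with medians at 63.5 and 58.3 for Snf2h. Elsewhere in the genome the medians lay between 48.9 and 51.5. The difference averaged 20.4 percentile points ± 7.72 (SD, n = 6 libraries) and was positive in 6 of 6 lists. The exact sign-flip permutation test over libraries gave p = 0.03125, two-sided, the smallest that 6 libraries allow, and 0.0521 after Benjamini-Hochberg adjustment over 5 comparisons, so it missed 0.05 once adjusted. The lists share 1 cell line and 1 genome, so this p speaks of these libraries.

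**Figure D3:**
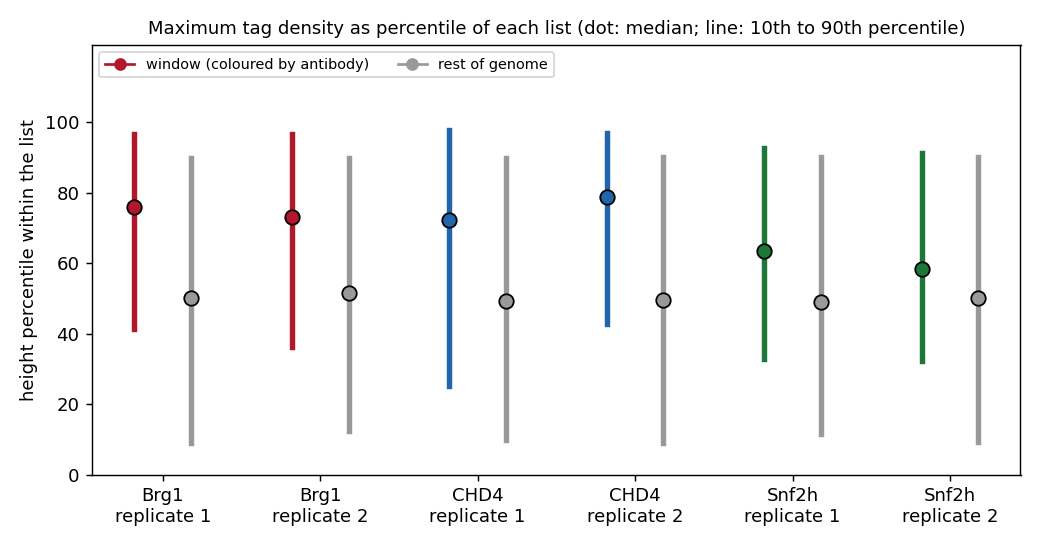
Dots are medians and lines run from the 10th to the 90th percentile of hotspot height, expressed as percentile within each list, for the window (coloured) and the rest of the genome (grey). The window's median is above that of the rest in all 6 lists, from 58.3 in Snf2h replicate 2 to 78.7 in CHD4 replicate 2.

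The tallest hotspots of each list were counted as well. Above the 90th percentile of their list stood 26 of 109 and 57 of 253 Brg1 hotspots (23.9% and 22.5%), 18 of 75 and 66 of 289 CHD4 hotspots (24% and 22.8%), and 4 of 32 and 10 of 82 Snf2h hotspots (12.5% and 12.2%). The background in the whole lists was 9.95% and 10.0% for Brg1, 9.87% and 9.77% for CHD4, with 9.63% and 10.1% for Snf2h. The Wilson intervals excluded that background for the Brg1 and CHD4 lists, with lower bounds of 16.8%, 17.8%, 15.8% and 18.4%. They included it for both Snf2h lists, from 4.97% to 28.1% and from 6.76% to 21.0%. Such intervals cover counting error only. Neighbouring hotspots are not independent, so the intervals cannot decide whether a list differs from its background. With only 32 and 82 Snf2h hotspots, the intervals do not set the antibodies apart either.

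Between antibodies, the height difference averaged 23.8 ± 2.89 points for Brg1, 26.1 ± 4.39 for CHD4 and 11.4 ± 4.48 for Snf2h (SD, n = 2 libraries each). Brg1 exceeded Snf2h by 12.4 points and CHD4 exceeded it by 14.7, each more than either SD. Exact permutation gave p = 0.333 for both, the smallest that 2 against 2 libraries allow, and 0.5 after adjustment over 3 pairs, so the design cannot tell these apart at 0.05. Brg1 minus CHD4 was -2.33 points (exact permutation p = 0.667).

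Hotspots were taller inside the stretch from 61.8 to 62.5 Mb than in the rest of the window, in all 6 lists. Inside it the median hotspot stood at percentile 88.7 and 89.9 for Brg1, 80.0 and 89.98 for CHD4, with 78.0 and 72.6 for Snf2h. In the rest of the window it stood at 67.3 and 64.9 for Brg1, 47.2 and 68.7 for CHD4, with 40.4 and 41.9 for Snf2h. Without the stretch the window still stood above the rest of the genome by 17.2 and 13.4 points in the Brg1 lists and by 19.1 points in CHD4 replicate 2. It stood at -1.97 points in CHD4 replicate 1 and at -8.53 and -8.22 points in the Snf2h lists. The mean was 5.16 points, a description, since the stretch was drawn with the tall regions in view.

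The lowest density called in a bin rose in the same stretch, in all 6 lists. The median over bins of the lowest maximum density was 24.9 inside and 12.7 outside for Brg1 replicate 1, and 5.38 inside and 3.16 outside for Brg1 replicate 2. It was 15.6 and 10.1 for CHD4 replicate 1, and 5.44 and 2.97 for CHD4 replicate 2. It was 18.7 and 11.8 for Snf2h replicate 1, and 12.1 and 6.86 for Snf2h replicate 2. The floor of called density was thus 1.55 to 1.95 times as high inside the stretch. By the same median over bins, the lowest Z score was 0.897 to 1.1 times as high. That ratio is no contrast, since the lowest Z score of a bin lies near the lower limit of its list whatever the local signal. In Brg1 replicate 2 the lowest Z score was 2.005 inside the stretch and 2.004 outside, and in Snf2h replicate 2 it was 8.53 and 8.51.

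Expressed as Z score, the whole window's difference was smaller. Its median hotspot stood at percentile 71.0 and 51.5 of the Z scores of the Brg1 lists, 53.3 and 49.5 for CHD4, and 43.9 and 57.1 for Snf2h. The mean difference from the rest of the genome was 4.39 points (exact sign-flip p = 0.312). Inside the stretch, though, the median Z percentile was 77.0 and 82.7 for Brg1, against 66.9 and 42.6 in the rest of the window. It was 53.2 and 63.9 for CHD4, against 53.3 and 45.0, and 51.1 and 63.3 for Snf2h, against 32.0 and 53.8. By Z score the stretch was higher in 5 of 6 lists, the exception being CHD4 replicate 1. These are the same hotspots, in a stretch drawn with the tall regions in view, so this is a description and no separate support. The part of the density floor in the height difference was not tested, and with no input analysed here, binding and local background cannot be told apart in these heights.

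Set among 2.5-Mb tiles of the genome, of which the window is one, its heights were high without being extreme. The mean over lists of its median percentile was 70.3, rank 112 of 960 tiles with at least 10 hotspots in every list, and rank 9 of the 39 tiles on chromosome 15. By height the window ranked 47th of 1010 and 66th of 1007 tiles in the Brg1 lists. It ranked 56th of 961 and 40th of 1010 in the CHD4 lists, and 227th of 1003 and 261st of 1009 in the Snf2h lists. By Z score it ranked 3rd and 439th for Brg1, 313th and 479th for CHD4, and 679th and 248th for Snf2h. By count, the window's 59 regions of all 3 antibodies ranked 225th of 1016 tiles, and its 441 merged regions ranked 835th. Against the rest of chromosome 15 the medians of the Snf2h hotspots differed little, by 1.45 and -1.97 points, and those of Brg1 by 17.3 and 18.6 and of CHD4 by 9.77 and 23.3. The mean over lists was then 11.4 points (exact sign-flip p = 0.0938).

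By number, hotspots were about as dense in the window as elsewhere, apart from 1 list. Per Mb there were 43.6 and 101.2 Brg1 hotspots in the window, against 44.8 and 100.9 on the rest of the genome. For Snf2h there were 12.8 and 32.8, against 12.5 and 31.0. For CHD4 there were 30 and 116, against 15.4 and 114, so CHD4 replicate 1 alone stood apart, at 1.94 times the genome's density. The mean log2 ratio was 0.18 ± 0.39 (SD, n = 6; exact sign-flip p = 0.219, adjusted p = 0.273), and it was 0.02 without CHD4 replicate 1. Against the rest of chromosome 15 it was 0.06 ± 0.36 (exact sign-flip p = 1) and -0.09 without that library.

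Among the tallest hotspots the window was dense for Brg1 and CHD4. When only the 32310 tallest hotspots of each list were kept, the window held 65 and 65 of Brg1, 72 and 77 of CHD4, and 32 and 38 of Snf2h. These are 2.08 and 2.08 times the density of the rest of the genome for Brg1, 2.3 and 2.46 times for CHD4, and 1.02 and 1.21 times for Snf2h. The mean log2 ratio was 0.82, positive in 6 of 6 lists (exact sign-flip p = 0.03125, the smallest possible). The selection is by the same densities as above, and the part of the local floor in it was not tested.

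The antibodies' density ratios over the full lists could not be told apart. Brg1 had a mean log2 ratio of -0.02 ± 0.03, CHD4 one of 0.49 ± 0.66 and Snf2h one of 0.05 ± 0.04 (SD, n = 2 each). Brg1 minus CHD4 was -0.51 and Brg1 minus Snf2h was -0.07, each with exact permutation p = 0.333, the smallest possible, and adjusted p = 0.5. CHD4 minus Snf2h was 0.44 (exact permutation p = 1). Without CHD4 replicate 1 this difference was -0.03 and without CHD4 replicate 2 it was 0.90. With lists of equal size, Brg1 minus Snf2h was 0.90 instead.

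A larger share of window hotspots overlapped a hotspot of another antibody in each full list, though not in each list of equal size. The share was 74.3% and 53.8% for the Brg1 lists in the window, against 49.5% and 40.8% on the rest of the genome. It was 98.7% and 46.4% for the CHD4 lists, against 90.1% and 38.7%, and 93.8% and 81.7% for the Snf2h lists, against 72.5% and 68.5%. The difference averaged 14.8 percentage points ± 6.89 (SD, n = 6), positive in 6 of 6 lists (exact sign-flip p = 0.03125, adjusted p = 0.0521). An overlap between antibodies is counted from both lists, so these 6 values are linked, and the test treats them as separate. With lists of equal size the mean difference was 7.47 points (exact sign-flip p = 0.438), with -3.80 and -11.4 points in the CHD4 lists and 40.6 points in Snf2h replicate 1. Without Snf2h replicate 1 that mean was 0.843 points over the other 5 lists.

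Overlap with the replicate list of the same antibody was higher too in the full lists. It was 78.9% and 30.8% in the window for Brg1, against 49.7% and 20.3% elsewhere, and 88% and 22.8% for CHD4, against 83.4% and 10.8%. For Snf2h it was 65.6% and 25.6%, against 58.6% and 23.0%. The difference averaged 11.0 points ± 9.57 (SD, n = 6), positive in 6 of 6 lists (exact sign-flip p = 0.03125, adjusted p = 0.0521). An overlap between replicates is counted from both lists, so these 6 values are 3 linked pairs, and that p treats them as separate. With 1 value per antibody the means were 19.8 points for Brg1, 8.35 for CHD4 and 4.80 for Snf2h (exact sign-flip p = 0.25, the smallest that 3 values allow). The mean was 6.58 points without either Brg1 library. With lists of equal size it was 3.06 points, with -4.51 in Snf2h replicate 2 (exact sign-flip p = 0.125). Against the rest of chromosome 15 the difference was 0.36 points in CHD4 replicate 1 and 0.00233 and 0.196 points in the Snf2h lists.

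Replicated sites of the window numbered 78 for Brg1, 62 for CHD4 and 21 for Snf2h. Per Mb these were 31.2, 24.8 and 8.4 in the window, against 20.1, 11.8 and 7.07 on the rest of the genome, or 1.55, 2.1 and 1.19 times as many. Among 1016 tiles of 2.5 Mb, the window ranked 201st by replicated Brg1 sites, 86th by CHD4 sites and 339th by Snf2h sites. Such counts are thus not particular to this window. They merged into 88 regions. All 3 remodelers held 17 of these (19.3%, 95% Wilson interval 12.4% to 28.8%), against 16.5% on the rest of the genome and a background of 16.5%. That share is near the background.

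Brg1 with CHD4 was the most frequent class of replicated sites in the window. It held 33 of the 88 regions (37.5%, interval 28.1% to 47.9%), against 21.3% on the rest of the genome and a background of 21.4%. Brg1 alone held 27 (30.7%, 22.0% to 41.0%), against 42.2% elsewhere, and CHD4 alone held 10 (11.4%, 6.29% to 19.7%), against 7.48%. Snf2h alone held 1 (1.14%, 0.201% to 6.16%), against a background of 5.58%. At least 2 remodelers shared 50 regions (56.8%, 46.4% to 66.7%), against a background of 44.7%.

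No region paired Snf2h with only 1 other remodeler at the level of replicated sites. Brg1 with Snf2h and CHD4 with Snf2h each held 0 of 88 regions, with an upper bound of 4.18%, against backgrounds of 3.45% and 3.43%, so no difference was detectable with 88 regions. Of the 18 regions with a replicated Snf2h site, 17 also held both Brg1 and CHD4 (94.4%), against a background of 57.0% of such regions in the series. The exception, from 62931716 to 62932299, reached 10.4 and 5.91 in the Snf2h libraries, at percentiles 32.6 and 28.1, and had no hotspot of another antibody in any list.

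**Figure D4:**
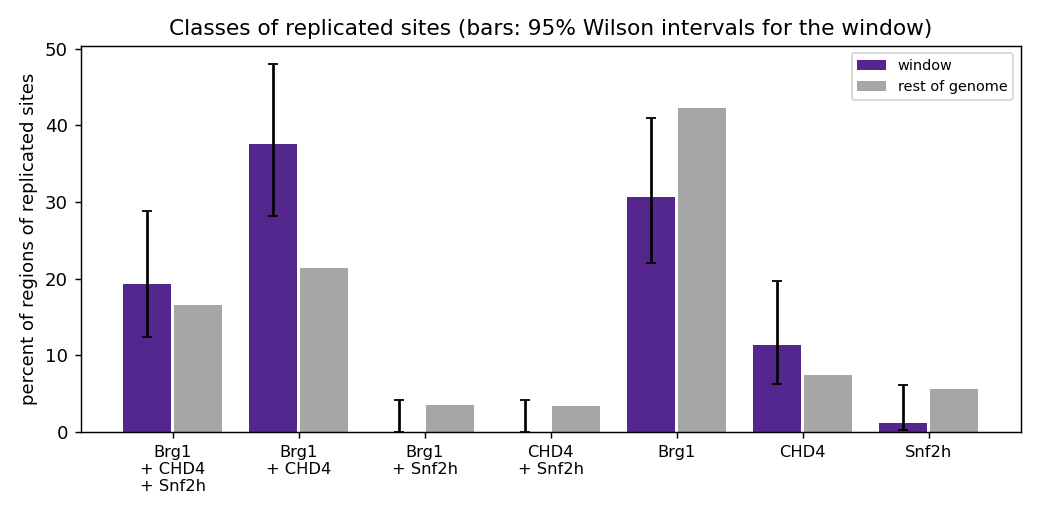
Bars give the percent of regions of replicated sites in each class, for the 88 regions of the window (purple, with 95% Wilson intervals, which cover counting error only) and the rest of the genome (grey). Brg1 with CHD4 held 37.5% in the window and 21.3% elsewhere, while the interval for all 3 remodelers included the genome's share.

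Regions held by both libraries of 1 antibody and by no list of another were counted. There were 9 among the 134 regions of Brg1 alone (6.72%, against a background of 4.21%). There were 0 among the 154 of CHD4 alone, against a background of 0.434%, and 1 among the 16 of Snf2h alone (6.25%), against a background of 2.13%. These counts are too small to set apart from the background. Of the 2 tallest of Brg1, one ran from 61870648 to 61871214, in the Myc bin, and reached 51.0 and 7.27 in the Brg1 libraries. The other, from 62431286 to 62431686, reached 20.3 and 7.27.

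At the 19 regions found in all 6 lists, Brg1 and CHD4 ranked above Snf2h. Ranked among the 10442 such regions of the genome, the window's medians were at percentile 74.5 and 87.5 for Brg1, at 83.1 and 77.8 for CHD4, with at 43.5 and 22.4 for Snf2h. Both percentiles of Brg1 exceeded all others at 4 regions, both of CHD4 at 3 and both of Snf2h at 0. In the genome the shares are 16.8%, 5.89% and 21.6% of the common regions. With 19 regions these counts are a description.

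**Figure D5:**
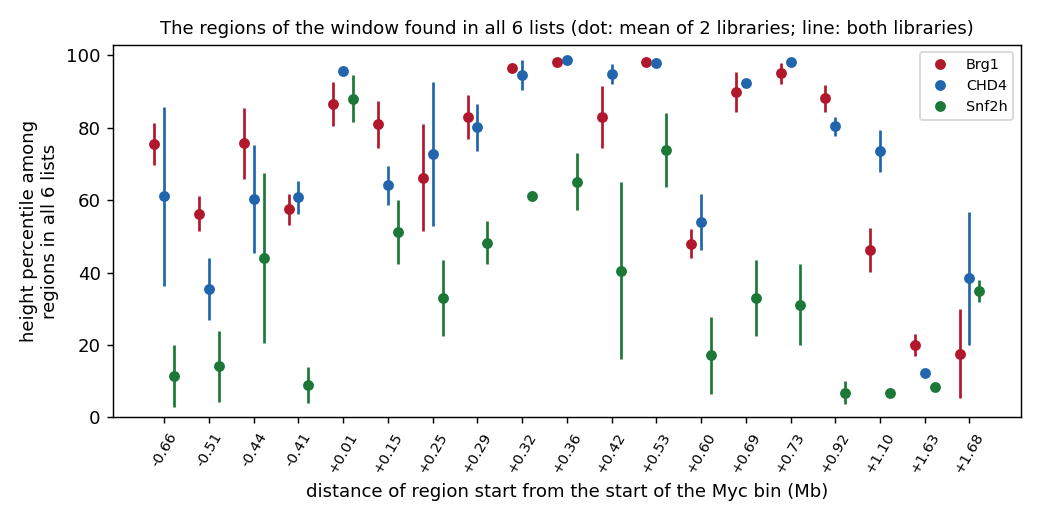
The 19 regions of the window found in all 6 lists are ordered by distance from the start of the Myc bin in Mb, with height as percentile among the genome's regions in all 6 lists. Dots are means of 2 libraries and lines join both. The Snf2h mean lies below those of Brg1 and CHD4 except at the region of the Myc bin, with 94.5 and 81.7, and at the last region of the window.

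The Myc bin's region was the place where Snf2h ranked highest among these 19, at percentiles 94.5 and 81.7, against 80.5 and 92.8 for Brg1 and 95.6 and 95.6 for CHD4. A contrast between antibodies lay at 62721126 to 62722008. Brg1 stood there at 84.5 and 91.8, CHD4 at 83.1 and 77.8, and Snf2h at 9.998 and 3.7. This example was chosen after its values were seen.

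Shared places were spread unevenly. The longest stretch without any hotspot ran from 61286404 to 61335118, 48.7 kb. Regions of all 3 antibodies left a longest gap of 190 kb, from 62531256 to 62721126, and the longest gap between replicated Snf2h sites was 501 kb, from 62932299 to 63432963. Neighbouring replicated sites lay a median of 22.5 kb apart for Brg1, 24.2 kb for CHD4 and 57.0 kb for Snf2h.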

How the data were processed

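The members and lists were chosen with earlier results of these data known. The authors called hotspots in each library; mm9 and CASAVA 1.6 are named per the submitters' processing notes, while the caller, its thresholds and its use of inputs are not stated in the labels. Each deposited list gives tag densities (a signal whose scaling is not stated), a Z score and a p-value per hotspot, per the file headers. The p-value was not used. The depth per library is unknown. The protocol text describes DNase I digestion, another assay.

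Intervals were read as closed and merged at an overlap of at least 1 bp. Reference lengths are the spans from the lowest start to the highest end per chromosome. Locus and reference were compared within each list, and the 6 differences were tested by exact sign flips, two-sided, threshold 0.05. Antibodies were compared by exact permutation of 2 against 2 libraries. Within-list height percentiles rank maximum density. The merging and the tests were tested on simulated data. Intervals are 95% Wilson intervals.

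Regions were named by rule: the 8 of highest mean percentile, those of the Myc bin in at least 5 lists, each list's tallest, and the 2 tallest of 1 antibody alone; bins were named for the 3 highest and lowest counts. The stretch from 61.8 to 62.5 Mb, the chromosome 15 reference for heights and shares, the height differences between antibodies, the tiles, the replicate share per antibody, the other Snf2h summit of the Myc bin and the contrast at 62721126 were added after seeing the data. Promoters of Myc and Pvt1 were not analysed here. Python 3.11.15, numpy 2.4.6, scipy 1.17.1, pandas 2.3.3 and matplotlib 3.10.9 were used.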

Additional observations from a re-analysis of the deposited data

How the results depend on the processing

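Of 138 alternative values, 94 kept direction and side of the threshold or, for counts, which have no test, stayed near the main value. The tests of antibody pairs and of bin likeness cannot reach 0.05, so their side of the threshold was fixed in advance. The cause of the other changes was not tested. At a common Z score of at least 9.49, Brg1 minus Snf2h was 0.27, bin likeness 0.0296 and merged regions 141. With lists of equal size these were 0.90, 0.0171 and 109, the density ratio to the genome was 0.82 on the log2 scale, and the shares overlapping another antibody and the replicate list were 7.47 and 3.06 points. By base pairs covered the density ratio was 0.35 (exact sign-flip p = 0.03125). By Z score the height difference was 4.39, against the rest of chromosome 15 11.4, and without the stretch from 61.8 to 62.5 Mb 5.16, where the replicate share was 5.12, and with 1 value per antibody that share was 11.0 (exact sign-flip p = 0.25). From replicated sites there were 88 merged regions and 17 of all 3 antibodies. Leaving out each library gave 18.7 to 22.9 for height, 13.3 to 16.8 and 6.58 to 14.1 for the shares, 0.02 to 0.22 and -0.0891 to 0.0891 for density against the genome and chromosome 15, -0.98 to -0.04, -0.10 to -0.05 and -0.0317 to 0.90 for Brg1 minus CHD4, Brg1 minus Snf2h and CHD4 minus Snf2h, -0.152 to 0.0859 for bin likeness, 293 to 442 merged regions, 25 to 59 of all 3 antibodies and 13 to 24 replicated sites in the Myc bin. The lowest counts came without CHD4 replicate 2 for merged regions and without Snf2h replicate 2 for all 3 antibodies. With 5 or 4 libraries the sign-flip p cannot go below 0.0625 or 0.125, so those fits could not pass.

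With a replicate block the antibody differences were -0.51, -0.07 and 0.44 (exact sign-flip p = 0.5, 0.5 and 1 over 2 pairs). With 2 pairs that p cannot go below 0.5, so no call could change. Over the 25 bins, deviations of same-numbered libraries correlated at 0.79 between Brg1 and CHD4, -0.11 between Brg1 and Snf2h and -0.29 between Snf2h and CHD4. These values concern deviations between replicates and not the profiles, whose rho was 0.71 between CHD4 replicate 1 and Snf2h replicate 1. Replicate 2 was the longer list for each antibody, so replicate number and list length cannot be told apart here. The labels tie the numbers to no shared batch or day, and the libraries were not treated as pairs.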
